A study of Mus musculus with 6 samples.

Results

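Mouse genes named Zfp with a 3-digit number from 600 up encode zinc finger proteins, and 125 of them were measurable in these CD8+ T cells. The genes were chosen by symbol and by level: protein-coding genes of the number range with a mean of at least 1 CPM (the counts-per-million scale) over all 6 libraries. Zfp873 was left out of the choice. The chosen genes were 125 of 169 protein-coding genes of the range at any level, again without Zfp873. They were 125 of 10875 genes that reached the same level, and of 29370 genes in the deposited gene matrix. The level rule used the mean over both groups, which is given here as a description only. At the edge of the rule, Zfp979 (1.01 CPM) and Zfp986 (1.04 CPM) lay just inside, and Zfp704 (0.928 CPM) and Zfp976 (0.918 CPM) just outside.

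The study asked how palmitate, a saturated fatty acid, affects CD8+ T cells, the cytotoxic lymphocytes. RNA was sequenced from 3 control and 3 palmitate libraries. All cells were of wild-type mice, came from pancreas, spleen and lymph nodes, and were kept in complete T cell medium for 48 hours. The palmitate group received 100 µM palmitate. What the control medium held in its place, the age of the mice and whether cells were pooled are not stated in the sources.

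Proteins with tandem C2H2 zinc fingers bind DNA, each finger contacting a few bases, and the order of the fingers sets the sequence recognised. Many carry a KRAB box, which recruits TRIM28 (KAP1); TRIM28 in turn brings the methyltransferase SETDB1, heterochromatin protein 1 and histone deacetylases to the bound site. Rodent KRAB zinc finger genes lie in clusters of related copies and are best known for silencing endogenous retroviruses and other transposable elements. The family name marks the fingers and not a function: several members lack a KRAB box and act on RNA, ribosomes or chromatin.

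The libraries held 16724588 to 29362276 counts, and the third palmitate library was the smallest. Summed levels of CD8 T cell markers were 1490 to 1770 CPM in controls and 1910 to 2170 CPM with palmitate, and 5 of 7 markers rose. Summed B cell and plasma cell markers were 181 to 246 CPM in controls and 276 to 305 CPM with palmitate (8 of 8 markers were detected and 2 of 7 tested rose), and erythroid markers 0.987 to 2.00 against 4.12 to 6.64 CPM (3 of 3 detected, 1 of 1 tested rose). CD4 T cell markers (3 of 3 detected, 1 of 2 tested rose) summed to 1.96 to 2.77 against 3.58 to 6.60 CPM, myeloid markers (6 of 6 detected, 0 of 2 tested called) to 2.65 to 4.92 against 4.11 to 4.72 CPM, NK cell markers (3 of 3, 0 of 2) to 0.688 to 1.87 against 0.847 to 2.51 CPM, and pancreatic markers (4 of 7, 0 of 1) to 0.585 to 0.987 against 0.847 to 1.73 CPM, with Prss1, Ins1 and Ins2 at 0 in every library. In the edgeR fit with the replicate number as a block, 5 of 7 tested B cell and plasma cell markers rose. The counts of the other marker lists stayed the same. Of all genes tested, 11.1% rose without the block and 16.5% with it. Ighm made up most of the B cell and plasma cell sum, with means of 191 and 243 CPM in controls and palmitate (edgeR adjusted p = 0.0801, and 0.0181 with the block). The part of these cell types in the results below was not tested. In bulk RNA, fewer cells of a type and less RNA per cell cannot be told apart.

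Most of the 125 genes were not called as changed. Of 124 that could be tested, 17 rose, 5 fell and 102 were not called (edgeR quasi-likelihood test over all genes, Benjamini-Hochberg adjusted p under 0.05, two-sided). The 17 risen genes were 13.7% of those tested, beside 11.7% among the other 10737 genes tested at the same level and 11.1% of all 12068 genes tested. The 5 fallen genes were 4.03%, beside 13.0% among the other genes of the level and 11.7% of all genes tested. The level is only a minimum and does not match the genes: the median of the mean CPM was 12.8 for the zinc finger genes and 30.7 for the others. The part of this difference in the shares was not tested. The median log2 fold change, palmitate over control, was 0.09 (quartiles -0.08 and 0.27), with 82 values above 0 and 42 below, against a median of 0.00 (quartiles -0.22 and 0.26) for the other genes of the level. All 3 palmitate libraries lay above all 3 control libraries for 28 of the 125 genes, beside 21.8% of the other genes, and below them for 14, beside 23.0%. The summed level of the 125 genes was 2792, 2865 and 2853 CPM in the controls and 3030, 2855 and 2905 CPM with palmitate, so the group totals overlapped.

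**Figure D1:**
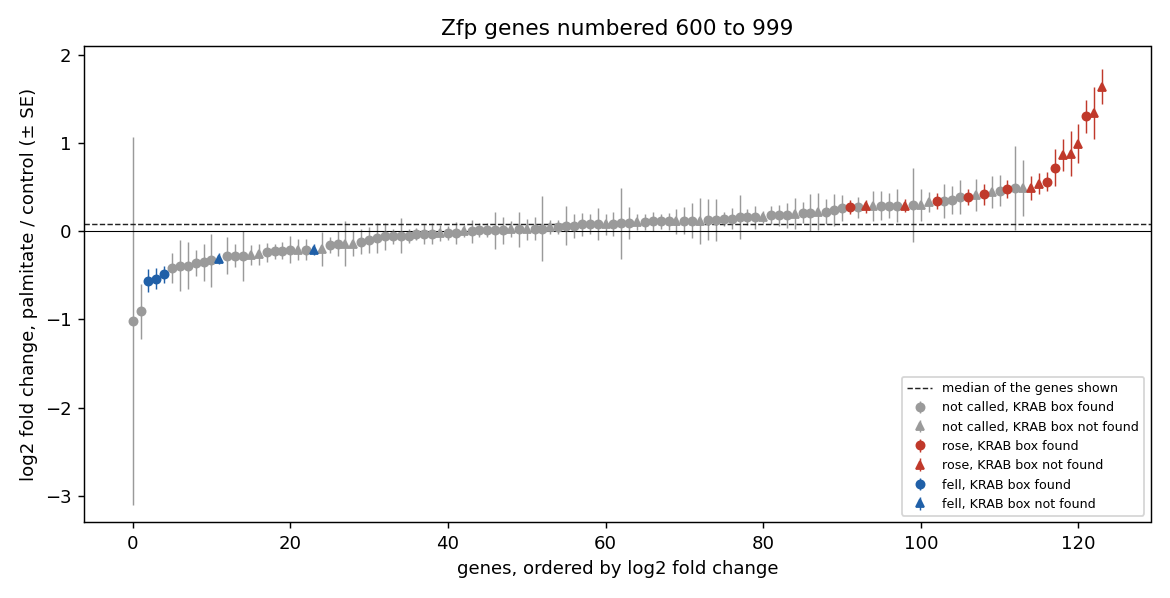
Log2 fold change (palmitate over control, ± standard error) of the 124 tested genes, ordered by value. Colour marks the call of the edgeR test, circles mark proteins in which a KRAB box was found and triangles those in which none was found. The 17 risen genes lie between 0.27 and 1.64, the 5 fallen genes between -0.56 and -0.21, and the dashed line marks the median of 0.09.

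With the replicate number as a block, 19 genes rose and 9 fell, beside 16.5% and 16.6% of all genes tested in that fit, and all 17 and 5 calls without the block were among them. Fits that left out 1 library moved the calls of all genes too. Without control 1, 16 zinc finger genes rose and 8 fell, beside 13.0% and 14.8% of all genes. Without control 2 the counts were 5 and 3, beside 5.24% and 5.7%, and without control 3 edgeR called 2 and 0, beside 2.79% and 2.8%. In the fit without control 3, 20 and 6 had an unadjusted p under 0.05, a cut that was not counted over all genes. Without palmitate 1 they were 8 and 4 (5.49% and 6.26% of all genes), without palmitate 2 10 and 4 (6.08% and 7.38%) and without palmitate 3 7 and 3 (5.41% and 5.18%). Over all genes, upper-quartile scaling moved the split from 1343 risen and 1416 fallen to 1651 and 1052, and there 19 of the zinc finger genes rose and 4 fell.

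The genes were then described by protein structure. A KRAB box was found in 90 of the 125 translated proteins, and of the 89 of these tested 8 rose (8.99%) and 3 fell (3.37%), with a median log2 fold change of 0.08. Of 35 proteins with no match, 9 rose (25.7%) and 2 fell (5.71%), with a median of 0.16. Of all genes tested, 11.1% rose and 11.7% fell. By number of fingers, the 74 tested genes with 10 or more had a median of 0.02 (10.8% rose, 4.05% fell), the 40 with 3 to 9 fingers 0.16 (15% rose, 2.5% fell) and the 10 with fewer 0.11 (3 genes rose, 1 fell). The difference between these classes was not tested. The proteins had a median of 11 fingers and 547 residues, and the most had 33 fingers. Outside the number range, of 155 Zfp genes numbered under 600, 22 rose (14.2%) and 9 fell (5.81%), with a median of 0.10. Of 267 other genes with 5 or more fingers, 127 are also among those 155; the 140 that are not gave 27 risen (19.3%) and 6 fallen (4.29%), with a median of 0.20.

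Zfp629 had the smallest adjusted p. This gene on chromosome 7 (127607031 to 127615797, minus strand, GRCm38) encodes a protein of 867 residues with 19 fingers and no KRAB match. It stood at 2.00, 1.56 and 2.04 CPM in the controls and at 5.20, 6.56 and 5.79 CPM with palmitate. No palmitate library overlapped the controls, and the log2 fold change was 1.64 ± 0.20 (SE; adjusted p = 0.00312, edgeR). It was called in all 6 fits that left out 1 library, which held for 2 of the 22 called genes.

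Zfp945 was the other. It is a KRAB protein with 18 fingers at the end of a cluster on chromosome 17 (22846697 to 22867134, minus strand). Its level was 7.36, 5.61 and 7.12 CPM in the controls and 20.9, 14.3 and 14.3 CPM with palmitate, where palmitate 1 was the highest. The log2 fold change was 1.30 ± 0.19 (edgeR adjusted p = 0.00524).

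Zfp831, a long protein with 2 fingers found by the pattern, had 6.54, 3.69 and 4.33 CPM in the controls and 17.2, 9.04 and 10.6 CPM with palmitate. The lowest palmitate library lay above the highest control, and the log2 fold change was 1.34 ± 0.30 (edgeR adjusted p = 0.0209). Replicate 1 was the highest library of both groups. Zfp629, Zfp945 and Zfp831 were the 3 called genes whose log2 fold change reached 1 in size, and 15 of the 22 called genes were under 0.6.

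Zfp652, a partner of the ETO-family corepressor CBFA2T3, stood at 25.1, 17.4 and 19.8 CPM and then at 54.4, 32.5 and 37.3 CPM with palmitate, with no overlap (log2 fold change 0.99 ± 0.22, edgeR adjusted p = 0.0209). Of its transcribed 31-base words, 12.6% also occur in other genes, mainly in Phospho1. Zfp839, in which the finger pattern found 0 matches despite its name, went from 2.37, 2.29 and 2.33 CPM to 4.19, 4.6 and 3.88 CPM. Its control libraries lay close together, and its log2 fold change was 0.86 ± 0.18 (edgeR adjusted p = 0.0137).

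Zfp827, which recruits the NuRD deacetylase complex to telomeres in some cells, had 21.6, 22.6 and 19.5 CPM in the controls and 28.6, 36.2 and 27.7 CPM with palmitate (0.54 ± 0.12, edgeR adjusted p = 0.0192). Zfp950, a KRAB protein with 17 fingers, had 15, 12.9 and 13.4 CPM against 22.5, 19.2 and 19.4 CPM (0.56 ± 0.11, adjusted p = 0.0122). Zfp777, with a KRAB box and 9 fingers, had 20.2, 17.8 and 18.1 CPM against 24.4, 24.8 and 29.0 CPM (0.48 ± 0.10, adjusted p = 0.0165). In these 3 genes the groups did not overlap.

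Zfp740 and Zfp646 were better counted and rose less. Zfp740 had 118, 108 and 117 CPM in the controls and 141, 133 and 144 CPM with palmitate (0.29 ± 0.07, edgeR adjusted p = 0.0233). Zfp646, with 27 fingers, had 51.2, 52.2 and 50 CPM against 64.3, 59.3 and 63.0 CPM (0.28 ± 0.07, adjusted p = 0.0274), and the matrix held 67.2% of its transcript reads. Its start overlaps that of Zfp668 on the other strand, and since no source used here states whether counting used strand, reads of the overlap cannot be told apart. Zfp668, studied in DNA repair, had 9.67 ± 0.689 and 9.81 ± 0.146 CPM (SD, n = 3 each; 0.02 ± 0.12).

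Zfp658, whose human counterpart takes part in the response to zinc, went from 3.47, 3.49 and 3.00 CPM to 5.12, 6.80 and 4.41 CPM (0.72 ± 0.21, edgeR adjusted p = 0.0391). The other risen genes were Zfp784 (log2 fold change 0.88), Zfp956 (0.49), Zfp949 (0.42) and Zfp968 (0.27). Of the 6 fits that left out 1 library, 0 called Zfp658, Zfp784 or Zfp949, and Zfp956 and Zfp968 were each called in 1. Zfp968 shares 97.3% of its 31-base words with other genes, so its reads cannot be assigned to it with certainty.

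**Figure D2:**
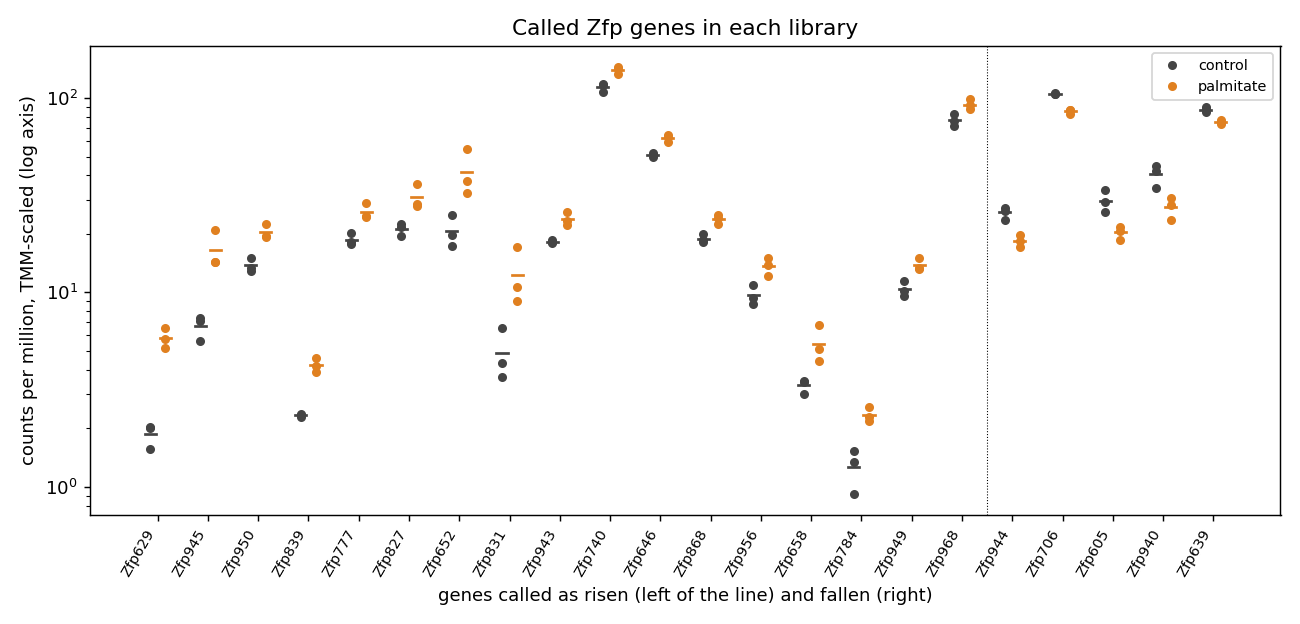
Level of the 22 called genes in each library, in TMM-scaled CPM on a log axis, with a bar at each group's mean. Control libraries are dark and palmitate libraries orange, risen genes stand left of the dotted line and fallen genes right of it, and within each gene the 3 palmitate points lie on one side of the 3 control points.

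Among the fallen genes, Zfp706 was the best counted. It encodes a short protein of 76 residues with 1 finger that helps embryonic stem cells leave pluripotency. Its level was 105, 105 and 106 CPM in the controls and 82.5, 86.3 and 87.1 CPM with palmitate. The controls were nearly equal, no library overlapped, and the log2 fold change was -0.31 ± 0.06 (edgeR adjusted p = 0.013). The matrix held 77.5% of its transcript reads.

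Zfp639 (ZASC1), a transcription factor with 9 fingers, had 84.5, 87.6 and 89.6 CPM against 73.5, 76.9 and 75.1 CPM (-0.21 ± 0.06, edgeR adjusted p = 0.0459). That adjusted p was the largest among the called genes. Under upper-quartile scaling the edgeR adjusted p was 0.112, and over all settings, left-out libraries included, it lay between 0.0249 and 0.166. Zfp639 was called in 1 of the 6 fits that left out 1 library.

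Zfp605 and Zfp940, both KRAB proteins, fell and shared a motif before their starts. Zfp605 had 25.8, 33.8 and 29.1 CPM in the controls and 18.7, 21.7 and 20.6 CPM with palmitate (-0.54 ± 0.12, edgeR adjusted p = 0.0176). Zfp940 had 34.5, 42.3 and 44.6 CPM against 23.5, 30.7 and 28.3 CPM (-0.56 ± 0.13, adjusted p = 0.0222). In both, the highest palmitate library lay below the lowest control. Their promoters are shown because both hold ACTACANTT, the core of the ZNF143 motif, read on the other strand. The windows are RefSeq's (GRCm38.p6), 250 bases before to 50 after the start: chr5:110109842-110110141 on the plus strand and chr7:29853599-29853898 on the minus strand. Capitals mark that core and, where present, the ETS core CCGGAA and the GC box GGGCGG.
Zfp605: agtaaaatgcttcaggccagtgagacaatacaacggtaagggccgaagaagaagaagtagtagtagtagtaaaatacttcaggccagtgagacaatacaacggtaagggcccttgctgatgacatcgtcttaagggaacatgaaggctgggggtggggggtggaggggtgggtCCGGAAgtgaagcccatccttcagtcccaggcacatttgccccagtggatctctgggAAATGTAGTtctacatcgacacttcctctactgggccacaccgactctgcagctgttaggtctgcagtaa
Zfp940: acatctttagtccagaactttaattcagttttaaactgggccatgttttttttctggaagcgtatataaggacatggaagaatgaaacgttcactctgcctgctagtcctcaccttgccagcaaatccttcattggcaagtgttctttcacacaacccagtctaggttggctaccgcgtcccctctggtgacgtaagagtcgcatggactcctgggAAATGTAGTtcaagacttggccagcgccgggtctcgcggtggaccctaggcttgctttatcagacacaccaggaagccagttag

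A RefSeq promoter was found for 110 of the 125 genes. ACTACANTT occurred on either strand in 12 of these (10.9%), beside 1.81% of all 27025 genes with a promoter, in 0 of 15 risen genes and in 2 of 4 fallen genes. CCGGAA occurred in 40 (36.4%, beside 16.7% of all genes), GGGCGG in 54 (49.1%, beside 38.2%), CCAAT in 67 (60.9%, beside 41.1%) and the E-box CACGTG in 13 (11.8%, beside 8.09%). These are letter matches and no measure of binding. The 31-base words and promoter windows were described, not tested.

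The chromosome 17 cluster of related copies held calls in both directions, as did all genes tested. In 21383748 to 22867134 (GRCm38), 14 of the genes lay less than 500 kb from their neighbours. Of these 14, 2 rose (Zfp943 and Zfp945) and 1 fell (Zfp944), beside 11.1% and 11.7% of all genes tested. The median log2 fold change was -0.01. Zfp943, a KRAB protein with 11 fingers, had 18.0, 18.2 and 18.5 CPM in the controls and 25.9, 22.2 and 23.4 CPM with palmitate (0.39 ± 0.09, edgeR adjusted p = 0.022). Zfp944, also a KRAB protein with 11 fingers, had 23.7, 26.3 and 27.3 CPM against 18.3, 17.2 and 19.7 CPM (-0.49 ± 0.10, adjusted p = 0.0128). Neither gene's groups overlapped. Zfp820 of the same cluster had a log2 fold change of -0.91 ± 0.31 but an edgeR adjusted p of 0.0678, and 0.0289 with the replicate block.

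Zfp943 and Zfp944 start from matching DNA. The windows chr17:21962309-21962608 (Zfp943, plus strand) and chr17:22361351-22361650 (Zfp944, minus strand) hold 169 bases that are identical when one is read on the opposite strand. The identical run reaches an end of each window, so its full length was not measured. The windows (RefSeq, GRCm38.p6) are shown because genes starting at this stretch moved in opposite directions, and capitals mark it.
Zfp943: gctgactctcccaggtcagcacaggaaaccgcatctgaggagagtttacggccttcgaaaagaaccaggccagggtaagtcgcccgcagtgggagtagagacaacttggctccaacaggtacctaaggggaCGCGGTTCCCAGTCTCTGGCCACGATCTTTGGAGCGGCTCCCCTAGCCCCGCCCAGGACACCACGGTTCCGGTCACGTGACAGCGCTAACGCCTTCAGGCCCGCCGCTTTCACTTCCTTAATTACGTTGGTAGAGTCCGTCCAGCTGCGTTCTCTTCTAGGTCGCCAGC
Zfp944: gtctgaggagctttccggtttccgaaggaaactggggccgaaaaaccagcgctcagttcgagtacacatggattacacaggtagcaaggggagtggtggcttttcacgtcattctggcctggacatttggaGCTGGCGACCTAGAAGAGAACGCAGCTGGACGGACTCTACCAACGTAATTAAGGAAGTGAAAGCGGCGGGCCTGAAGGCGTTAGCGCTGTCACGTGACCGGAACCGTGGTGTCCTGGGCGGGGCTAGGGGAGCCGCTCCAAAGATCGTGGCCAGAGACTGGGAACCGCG

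Each copy of the stretch lies at the starts of a pair of genes that face away from each other. Zfp942 and Zfp943 are separated by 87 bases, and Zfp944 and Zfp758 by 52. Zfp942 had 29.7, 31.9 and 34.8 CPM in the controls and 43.8, 33.0 and 39.2 CPM with palmitate (0.27 ± 0.12, edgeR adjusted p = 0.141). Zfp758 had 21.3, 26.3 and 24.9 CPM against 29.7, 20.7 and 28.5 CPM (0.12 ± 0.15, adjusted p = 0.589). Both overlapped between groups. Read in the same orientation, the copies place Zfp943 where the other has Zfp758, and Zfp942 where it has Zfp944, so Zfp943 and Zfp944 lie on opposite sides of the stretch. Zfp944 shares 22.6% of its 31-base words with other genes, most with Zfp942, and Zfp943 6.92%.

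**Figure D3:**
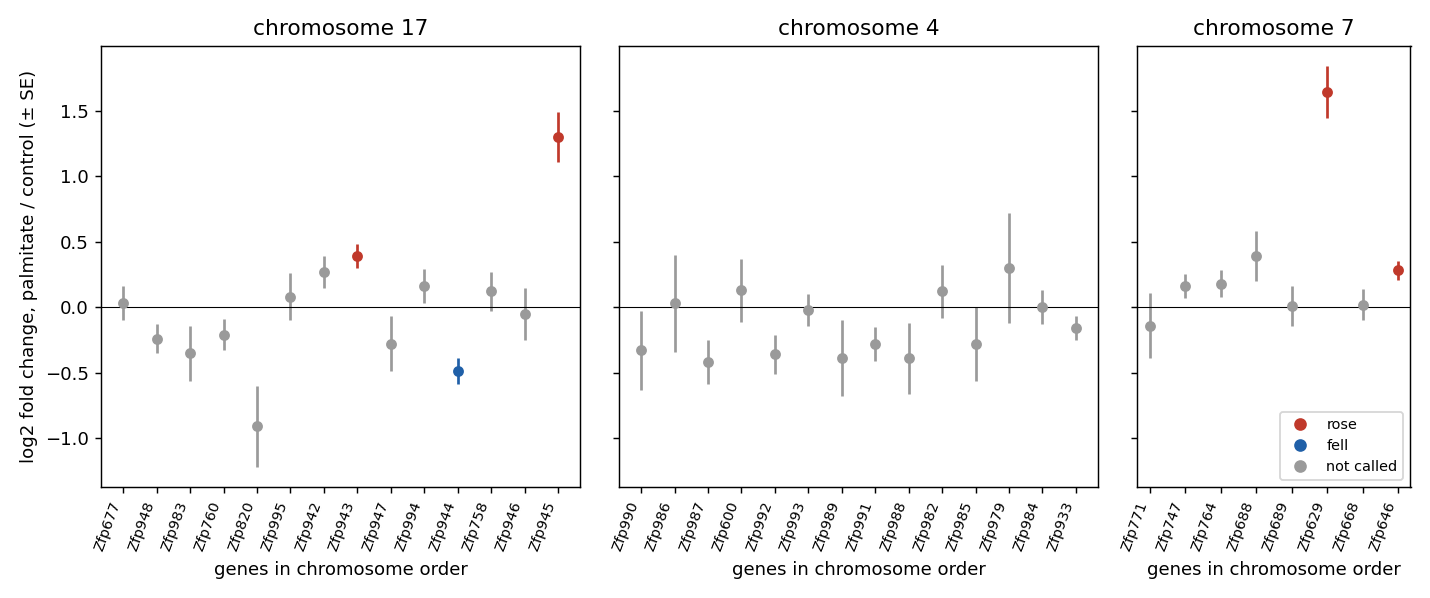
Log2 fold change (palmitate over control, ± standard error) of the genes in 3 neighbourhoods, in their order along the chromosome, coloured by call. On chromosome 17 Zfp945 at 1.30 and Zfp943 at 0.39 rose and Zfp944 at -0.49 fell, on chromosome 4 no gene was called, and on chromosome 7 Zfp629 at 1.64 and Zfp646 at 0.28 rose.

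The chromosome 4 cluster (145510759 to 147848366) also held 14 of the genes. Genes of this cluster are known for silencing endogenous retroviruses in embryonic stem cells. In edgeR 0 rose and 0 fell, beside 11.1% and 11.7% of all genes tested. At an unadjusted p under 0.05 there were 0 and 2, a cut that was not counted over all genes. DESeq2 also called 0 (12% and 14.3% of all genes), and so did limma-voom (11.1% and 11.3%). With the replicate block edgeR called 0 as risen and 1 as fallen, beside 16.5% and 16.6% of all genes. The fallen gene was Zfp987 (edgeR adjusted p = 0.0447, against 0.107 without the block). The median log2 fold change was -0.22, beside 0.02 for all genes tested. Of the values, 9 of 14 were below 0, beside 5781 of 12068 for all genes tested. Whether the cluster differs from other genes was not tested. Their summed level was 277, 269 and 284 CPM in the controls and 277, 204 and 257 CPM with palmitate, so the groups overlapped and palmitate 2 was the lowest. These copies resemble each other closely: Zfp986 and Zfp987 share 93.7% and 93.1% of their 31-base words with other genes, so single values there are uncertain.

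On chromosome 7 (127244274 to 127885996), 2 of 8 genes rose, Zfp629 and Zfp646, and 0 fell, beside 11.1% and 11.7% of all genes tested. Of the values, 7 of 8 were above 0 (median 0.17), beside 6287 of 12068 for all genes tested. Of 5 genes near 69 Mb of chromosome 8 (69209038 to 69791178), 1 rose and 0 fell, beside the same shares of all genes. The risen gene, Zfp868, went from 18.7, 18.1 and 19.9 CPM to 24.2, 22.6 and 24.9 CPM (0.34 ± 0.09, edgeR adjusted p = 0.0294). Its neighbour and relative Zfp869 was counted at 179, 202 and 0 reads in the controls and 0, 172 and 0 with palmitate. Libraries with reads and libraries without occurred in both groups. Zfp868 shares 9.27% of its 31-base words with other genes, most with Zfp869 (7.24%). Where Zfp869 had 0 reads, Zfp868 was highest within its group: 19.9 CPM in control 3, and 24.2 and 24.9 CPM in palmitate 1 and 3. The part of read assignment between these genes in the rise was not tested. The 2 coding sequences have 85.9% identical bases where aligned, and their first 180 bases (positions 1 to 180 from the start codon, GENCODE M21) are shown to display how alike the genes are. Capitals mark the 7 differing bases.
Zfp868: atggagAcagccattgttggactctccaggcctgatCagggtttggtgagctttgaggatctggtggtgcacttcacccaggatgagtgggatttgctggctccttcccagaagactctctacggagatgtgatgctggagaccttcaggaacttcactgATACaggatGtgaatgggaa
Zfp869: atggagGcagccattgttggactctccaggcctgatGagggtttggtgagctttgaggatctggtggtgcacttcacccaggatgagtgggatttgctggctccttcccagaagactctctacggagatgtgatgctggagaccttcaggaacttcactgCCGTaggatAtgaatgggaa

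The 4 members listed for binding retroviral sequences were not called, beside 11.1% risen and 11.7% fallen of all genes tested. Whether these 4 genes differ from the rest was not tested. Zfp809, which recruits TRIM28 to the primer binding site of murine leukaemia viruses, had 10.5, 13.0 and 11.7 CPM in the controls and 13.1, 15.6 and 12.2 CPM with palmitate (0.22 ± 0.14, edgeR adjusted p = 0.278), and the matrix held 32.7% of its transcript reads. Zfp961, which also binds a retroviral primer binding site, had 28.6 ± 0.313 and 28.3 ± 0.991 CPM (SD, n = 3 each; -0.02 ± 0.08). Zfp932, which binds endogenous retroviruses, had 38.5 ± 1.29 and 37.2 ± 1.90 CPM (-0.05 ± 0.08). Zfp708, which binds a retroelement in early embryos, had 4.69 ± 0.719 and 5.96 ± 0.817 CPM (0.34 ± 0.19). In the matrix the groups overlapped in all 4. In the transcript tables the coding transcripts of Zfp809 summed to 23.2, 23.6 and 25.1 CPM in the controls and 29.7, 28.4 and 26.6 CPM with palmitate, with no overlap; its transcript sums with length offsets were not called (0.12, edgeR adjusted p = 0.361). Zfp708 shares 95.6% and Zfp932 48.3% of their 31-base words with other genes, so their reads cannot be assigned with certainty.

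Of 13 members listed for other roles, 5 were called: Zfp827, Zfp652, Zfp658, Zfp706 and Zfp639, described above. The other 8 were not. Of all 124 zinc finger genes tested, 17 rose and 5 fell, and of all genes tested 11.1% rose and 11.7% fell. Whether genes with a described role differ from the rest was not tested. Zfp638, an RNA- and DNA-binding protein that works with the HUSH complex on unintegrated viral DNA, had the highest CPM (not corrected for length) of the genes, 141 ± 10.4 and 141 ± 3.53 CPM (SD, n = 3 each; 0.00 ± 0.07). Zfp644, a partner of the G9a and GLP methyltransferases, had 106, 109 and 109 CPM against 124, 112 and 125 CPM. Its groups did not overlap, but the call was missed (0.16 ± 0.07, edgeR adjusted p = 0.134; 0.0497 with upper-quartile scaling). Zfp622, a factor of ribosome assembly, had 50.1 ± 2.62 and 52.0 ± 3.04 CPM (0.05 ± 0.08). Zfp687 of the ZMYND8 complex had 0.11 ± 0.14, the splicing factor Zfp830 0.10 ± 0.09 and Zfp667 -0.12 ± 0.14 as log2 fold changes.

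Zfp746 (PARIS), the parkin substrate that represses PGC-1alpha, was counted only in part in the gene matrix. Its matrix values were 14.2, 15.8 and 4.97 CPM in the controls and 21.1, 17.8 and 9.96 CPM with palmitate, and control 3 and palmitate 3 were low. The matrix held 39.1% of its transcript reads. The low libraries had the most reads in the other coding transcript, Zfp746-203 (20.3 and 20.5 CPM). The log2 fold change was 0.49 ± 0.48 (edgeR adjusted p = 0.501; 0.0355 with the replicate block). Its coding transcripts summed to 24.1, 22.8 and 24.7 CPM in the controls and 33.0, 31.8 and 29.6 CPM with palmitate, with no overlap. Transcript sums gave 0.28 with an adjusted p of 0.0329 without length offsets, and 0.09 with an adjusted p of 0.514 with them.

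The matrix held under 90% of the transcript reads for 21 of the 125 genes and under 50% for 10. Zfp799 had 14.6 CPM in the matrix in palmitate 2 and 0 in the other libraries, and was the 1 gene not tested. Its transcripts summed to 14.9, 13.9 and 14.8 CPM in the controls and 16.2, 14.6 and 16.1 CPM with palmitate. In palmitate 2 the reads were assigned to Zfp799-201 and in the other libraries to Zfp799-205. For Zfp773 the matrix held 16.1% of reads, with 1.40 ± 0.0751 and 1.57 ± 0.28 CPM (SD, n = 3 each; 0.16 ± 0.25). The transcript Zfp773-202 had 5.08, 3.96 and 5.05 CPM in the controls and 10.9, 9.43 and 8.71 CPM with palmitate. Its groups did not overlap, and Zfp773 rose by 0.78 on the log2 scale in transcript sums with length offsets (edgeR adjusted p = 0.00885). Zfp983, with 24.1% of reads in the matrix (-0.35 ± 0.21), fell by 0.56 in those sums (adjusted p = 0.0205).

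**Figure D4:**
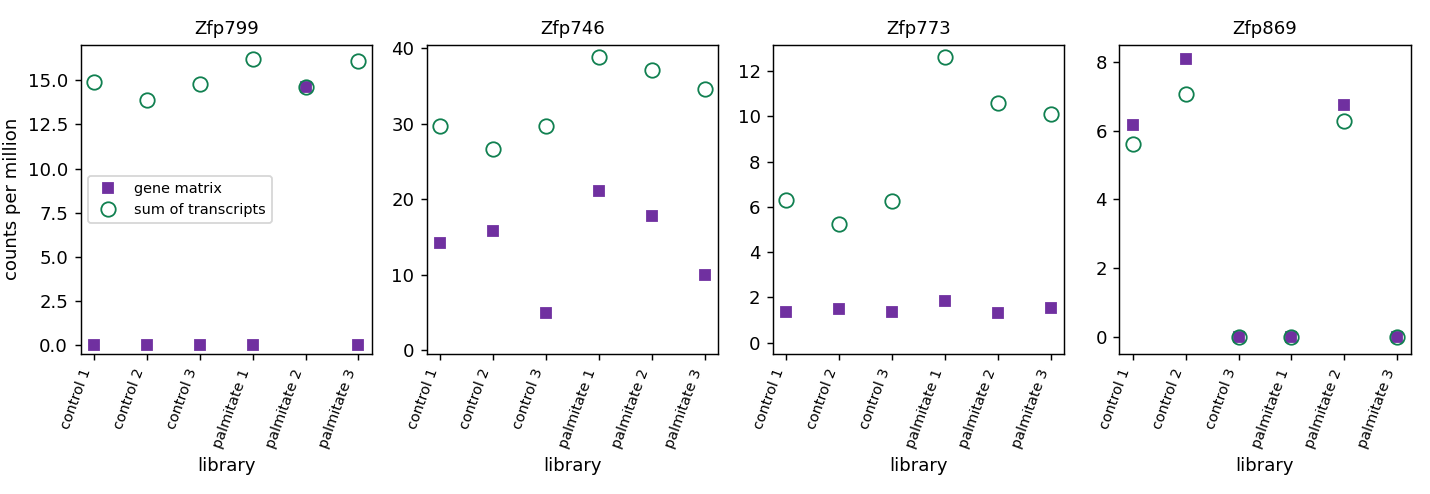
Level in each library in CPM, as the gene matrix gives it (squares) and as the sum of the gene's transcripts (circles). Zfp799 is at 0 in the matrix in 5 libraries where its transcripts sum to 13.9 to 16.2, Zfp746 and Zfp773 are lower in the matrix in every library, and Zfp869 is at 0 in both for 3 libraries.

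Of the 44 genes of the number range below the level, 9 reached 1 CPM in the transcript sums, and 7 of these had no reads in the matrix. In the transcript-sum fit with length offsets 1 of the 9 was called, beside 8.86% of all genes risen and 11.5% fallen in that fit. This gene, Zfp626, had 31.2, 26.7 and 27.4 CPM in the controls and 40.1, 37.9 and 35.8 CPM with palmitate (0.35 ± 0.10, edgeR adjusted p = 0.0349). Zfp654 had 37.5, 43.3 and 39.1 CPM against 55.2, 46.0 and 47.7 CPM. Its groups did not overlap in these CPM, which are not TMM-scaled. It was not called (0.23 ± 0.10, edgeR adjusted p = 0.127). Zfp825 had 31.9 ± 2.66 and 34.1 ± 0.354 CPM (SD, n = 3 each; 0.04 ± 0.09).

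Transcript classes changed unequally within Zfp945 and Zfp940, which were picked out after their values were seen. No test was made of the classes. In Zfp945, coding transcripts summed to 3.30, 2.53 and 2.45 CPM in the controls and 5.13, 5.61 and 5.48 CPM with palmitate. Its transcripts annotated with a retained intron summed to 3.43, 2.35 and 3.81 CPM against 14.6, 7.70 and 7.52 CPM. The mean ratio was 1.96 for coding and 3.11 for retained-intron transcripts, and neither class overlapped between groups. In Zfp940, coding transcripts went from 26.7, 30 and 33.9 CPM to 17.2, 23.2 and 19.2 CPM, while its retained-intron transcript had 4.66, 6.84 and 5.10 CPM against 4.8, 5.14 and 6.30 CPM, which overlapped. Over all genes the retained-intron share of reads was 4.55% to 5.44% in the controls and 4.67% to 5.53% with palmitate; over the 125 genes it was 4.33% to 5.06% and 4.81% to 5.83%.

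Zfp738, with 20 fingers, had a gene-level log2 fold change of -0.03 ± 0.07. Its transcript Zfp738-201 had 27, 25 and 25.7 CPM in the controls and 19.8, 21.1 and 21.3 CPM with palmitate, all lower. Zfp738-203 had 19.1, 19.1 and 19.8 CPM against 25.9, 24.5 and 23.7 CPM, all higher. These transcripts were picked out after their values were seen, and no test was made at the transcript level. With length offsets the transcript sums of Zfp738 fell by 0.29 on the log2 scale (edgeR adjusted p = 0.0401).

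**Figure D5:**
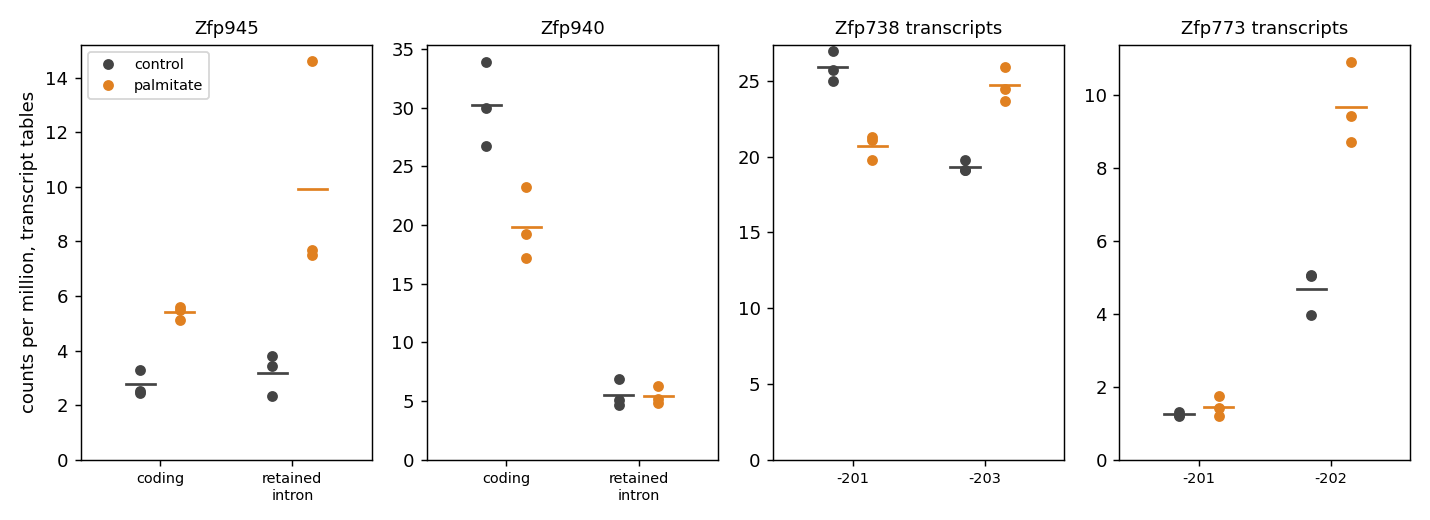
Level of transcripts or transcript classes in each library, in CPM of the transcript tables, with a bar at each group's mean (control dark, palmitate orange). Both classes of Zfp945 are higher with palmitate, the coding class of Zfp940 is lower while its retained-intron class overlaps, Zfp738-201 and Zfp738-203 moved in opposite directions, and Zfp773-202 is higher while Zfp773-201 overlaps.

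A list of 40 genes held the transcripts of TRIM28, its partners and other silencing factors, Polycomb genes included. Of these, 37 could be tested, and 2 rose and 9 fell, beside 11.1% and 11.7% of all genes tested; the median log2 fold change was -0.13. With the replicate block 5 rose and 12 fell, beside 16.5% and 16.6% of all genes. With upper-quartile scaling 4 rose and 8 fell (13.7% and 8.72% of all genes), and in DESeq2 4 and 13 (12% and 14.3%). Trim28, the corepressor itself, had 333, 284 and 316 CPM in the controls and 366, 335 and 381 CPM with palmitate. The groups did not overlap, but it was not called (0.21 ± 0.09, edgeR adjusted p = 0.105; 0.0358 with the block). Setdb1, the histone H3 lysine methyltransferase of the complex, had 164, 173 and 173 CPM against 125, 137 and 112 CPM (-0.45 ± 0.08, adjusted p = 0.0102). Atf7ip, the partner that stabilises SETDB1, had 35.3 ± 2.49 and 38.5 ± 1.70 CPM (SD, n = 3 each; 0.13 ± 0.09).

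Hdac1, a deacetylase of the NuRD complex, had 483, 591 and 552 CPM in the controls and 231, 320 and 288 CPM with palmitate (-0.95 ± 0.13, edgeR adjusted p = 0.00436). Its relative Hdac2 had 200 ± 11.9 and 156 ± 9.90 CPM (SD, n = 3 each; -0.36 ± 0.08, adjusted p = 0.0158). The methyltransferase Suv39h2 fell, with -0.65 ± 0.10 (adjusted p = 0.00559), and the HUSH subunit Pphln1 -0.48 ± 0.09 (adjusted p = 0.00987). The 2 risen genes, named after their values were seen, were the NuRD helicase Chd3 (0.77 ± 0.18) and the demethylase Kdm1a (0.25 ± 0.07).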

How the data were processed

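RNA from 3 control and 3 palmitate samples of mouse CD8+ T cells was sequenced; per the labels' protocols it was purified on RNeasy columns and libraries were made with a SMARTER mRNA-Seq kit. Deposited by the authors were 1 table of whole-number counts per gene and, for each library, a Salmon table with expected counts and lengths of transcripts. Salmon 1.10.0 is named in the submitters' processing notes, beside DESeq 1.42.0, Trim Galore 0.6.10 and the build GRCm39; the sources used here do not state how transcripts were summed to genes. Of the matrix columns, 0 were left unused, and 0 entries named no gene.

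Symbols, gene types and coordinates came from GENCODE M21 (GRCm38), which matched 29087 of 29370 genes and 114857 of 116224 transcripts. Coordinates are therefore not of the submitters' build. No RefSeq protein table was used; KRAB boxes and C2H2 fingers were searched by pattern in the translated longest coding sequence. Promoters came from RefSeq (GRCm38.p6).

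The counts as deposited were tested with edgeR 4.0.16 (TMM, filterByExpr, robust quasi-likelihood, R 4.3.3), group as the only term, over 12068 genes; the code was tested on simulated data. CPM are TMM-scaled in the matrix values, and the 1 CPM minimum used unscaled CPM. Transcript CPM are relative to each transcript table's total and are not TMM-scaled. The TMM factors of the matrix were 0.9582 to 1.007 in the controls and 1.003 to 1.04 with palmitate. Palmitate values therefore stand somewhat higher against controls in transcript CPM than in matrix CPM, and narrow gaps between groups can depend on this. Alternatives were RLE and upper-quartile scaling, other filters, DESeq2 1.42.0, limma-voom 3.58.1, a replicate block, rounded transcript sums with and without length offsets, a 5 CPM minimum and leaving out each library. Replicates of a group differed by more than sampling noise. Same-numbered control and palmitate libraries deviated together (r = 0.226, 0.13 and 0.152, and for different numbers -0.185 to 0.0608), so the labels' numbers may pair samples. Deviations from a group's mean cancel within the group, so these values are not independent of each other. The main test has no block, and the value of the fit with the block is given where it changes a call. Nothing in the labels says that libraries came from separate mice or cultures, so p-values reflect only how far these libraries spread, and that spread may be technical. No batch is labelled.

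The genes and lists were chosen with earlier results of these data known, so no test over a list was made. Named genes were up to 12 risen and 12 fallen genes with the smallest adjusted p, genes with a described role, the 2 nearest the minimum on each side, and the 3 with the highest CPM. Depth of 16724588 to 29362276 counts limits genes near 1 CPM most.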

Additional observations from a re-analysis of the deposited data

How the results depend on the processing

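The median log2 fold change of the zinc finger genes stayed above 0 under every setting run, and upper-quartile scaling gave 0.15 in place of 0.09, while the median of all genes moved from 0.02 to 0.08. With no filter on low counts the values were 0.08 and 0.07. Beside 17 risen and 5 fallen genes, the replicate block gave 9 fallen genes. Of the genes the text describes it added calls for Zfp746, Zfp820, Zfp987, Trim28 and the marker Ighm. Without 1 library, risen genes numbered 2 to 16, fallen genes 0 to 8, and the median was 0.06 to 0.10; these fits hold fewer samples. Transcript sums with length offsets called 13 risen and 5 fallen genes, beside 8.86% and 11.5% of all genes tested in that fit. Among these 13 and 5 genes, 12 and 3 were also main calls. Zfp950, Zfp740, Zfp940, Zfp639, Zfp658, Zfp784 and Zfp968 were not called there. Of all 124 genes, 11 changed sign in those sums, and 0 of these were called in either fit by edgeR. Among the named genes, signs changed 14 times over all settings, in genes called in neither fit, and the cause was not tested. Zfp932 was 0.01 and Zfp961 0.04 with upper-quartile scaling, and Zfp961 was 0.01 with a 5 CPM minimum and -0.05 to 0.01 with 1 library left out. Zfp638 was -0.01 with RLE scaling, -0.01 with no filter, -0.01 in DESeq2, -0.06 without control 3, -0.02 without palmitate 1 and -0.01 without palmitate 2. Zfp668 was -0.20 and Zfp667 0.23 in transcript sums with length offsets, and Zfp668 was -0.02 to 0.08 with 1 library left out. With 3 libraries a group, changes under the spread of low-count genes were not detectable.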

Other observations

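Of 21 zinc finger genes listed for a described role, 17 reached the level. Zfp683 (Hobit), a transcription factor of tissue-resident T cells, was at 0.405 CPM over the 6 libraries, with a range of 0.136 to 0.646 CPM. Zfp768 was at 0.905 CPM, Zfp703 at 0.726 CPM and Zfp618 at 0.0182 CPM, and none of these was described further.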
